A study of Mus musculus with 9 samples.

Results

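The genes described are 10 members of the fibroblast growth factor (FGF) system: the paracrine ligands Fgf1, Fgf2, Fgf18 and Fgf22, the intracellular factor Fgf11, the receptors Fgfr1, Fgfr2, Fgfr3 and Fgfr4, and the receptor-like gene Fgfrl1. They were taken by symbol from the 55357 gene identifiers of the deposited table, and 8 of them were among the 15046 genes with enough counts to be tested. Fgf22 and Fgfr4 were too low to be tested. The libraries came from FACS-sorted back skin keratinocytes of C57BL/6 mice of genotype TNC-CREER; tdTomato at postnatal day 60. Every mouse had received tamoxifen at 100 µg per g body weight on postnatal days 51 and 52, which lets the inducible Cre, driven by the Tenascin-C gene, switch on a red reporter. Touchdome cells were sorted as positive for EPCAM, integrin α6, SCA1 and the reporter. HF (hair follicle) cells were positive for EPCAM and integrin α6 and negative for SCA1 and the reporter, and IFE (interfollicular epidermis) cells were positive for EPCAM, integrin α6 and SCA1 and negative for the reporter. Each group had 3 poly(A) RNA-seq libraries. No label ties a library to its own animal. The p-values therefore measure the spread of these libraries, which may be technical.

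FGF ligands bind cell surface receptor tyrosine kinases together with heparan sulfate chains, and the activated receptors signal through adaptor proteins to the ERK kinases. The ERK cascade in turn switches on ETS family transcription factor genes and feedback inhibitors such as the Sprouty and Spred proteins. In mouse skin, keratinocyte FGF receptors are known for their part in barrier upkeep and in the hair cycle, and Fgf18 is known as a follicle signal that holds hair follicles in their resting phase.

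Total expected counts were 9295059 to 28249763 per library. Tnc, the gene behind the reporter, stood at 200.4 to 288 CPM in Touchdome, 40.6 to 56.9 CPM in HF and 1.13 to 7.16 CPM in IFE libraries, where CPM is the count scaled to 1e+06 counts of the TMM-adjusted library total. Ly6a, which encodes SCA1, stood at 104 to 140.5 CPM in Touchdome, 0.422 to 1.90 CPM in HF and 112 to 180 CPM in IFE. The basal keratinocyte keratin genes Krt5 and Krt14 were high in all 9 libraries, with Krt14 lowest in HF at 2279 to 2738 CPM. Of the other basal keratinocyte markers, Krt15 was not lowest in HF, with means of 5964 CPM in Touchdome, 8676 CPM in HF and 8190 CPM in IFE. In the same order, Col17a1 averaged 7076, 7758 and 8088 CPM and Trp63 averaged 1149, 849 and 1096 CPM. The summed level of 8 bulge and hair germ markers was 974 to 1927 CPM in Touchdome, 6475 to 7415 CPM in HF and 535 to 689 CPM in IFE. Touchdome replicate 3 stood apart from the other Touchdome libraries, where these markers summed to 1927 CPM, beside 1105 CPM for replicate 1 and 974 CPM for replicate 2. Melanocyte markers summed to 17.5, 16.1 and 51.3 CPM and Langerhans cell markers to 164, 140 and 301 CPM in Touchdome replicates 1, 2 and 3, with Langerhans cell markers at 61.7 to 387 CPM in HF and 105 to 235 CPM in IFE. IFE replicate 2 stood apart too, since its counts differed from those of the other IFE libraries by a chi-square per degree of freedom of 73.6 and 69.5, against 16.8 to 26.0 for all other pairs within a group. In bulk samples, fewer cells of a type and less RNA per cell cannot be told apart.

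The HF libraries stood apart from the others in 6 of the 8 tested FGF genes. They held high Fgf18, Fgf1, Fgfr1 and Fgfrl1 and low Fgfr2 and Fgfr3, relative to both other groups. Over all genes tested, 17.1% were called higher and 16.0% lower in HF than in IFE, with no overlap for 47.7%. Touchdome was called higher than HF for 11.8% of all genes and lower for 12.8%, with no overlap for 43.4%. Against IFE, Fgf18 was the 1 member called in Touchdome, where it was 6.36-fold higher, and the other 7 tested members did not pass, where 1.22% of all genes tested were called higher. With the replicate block, which pairs these libraries by number, Fgfr1 passed as well and the count was 2. The levels of Fgf2 and Fgf11 did not pass the test in any of the 3 comparisons.

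**Figure D1:**
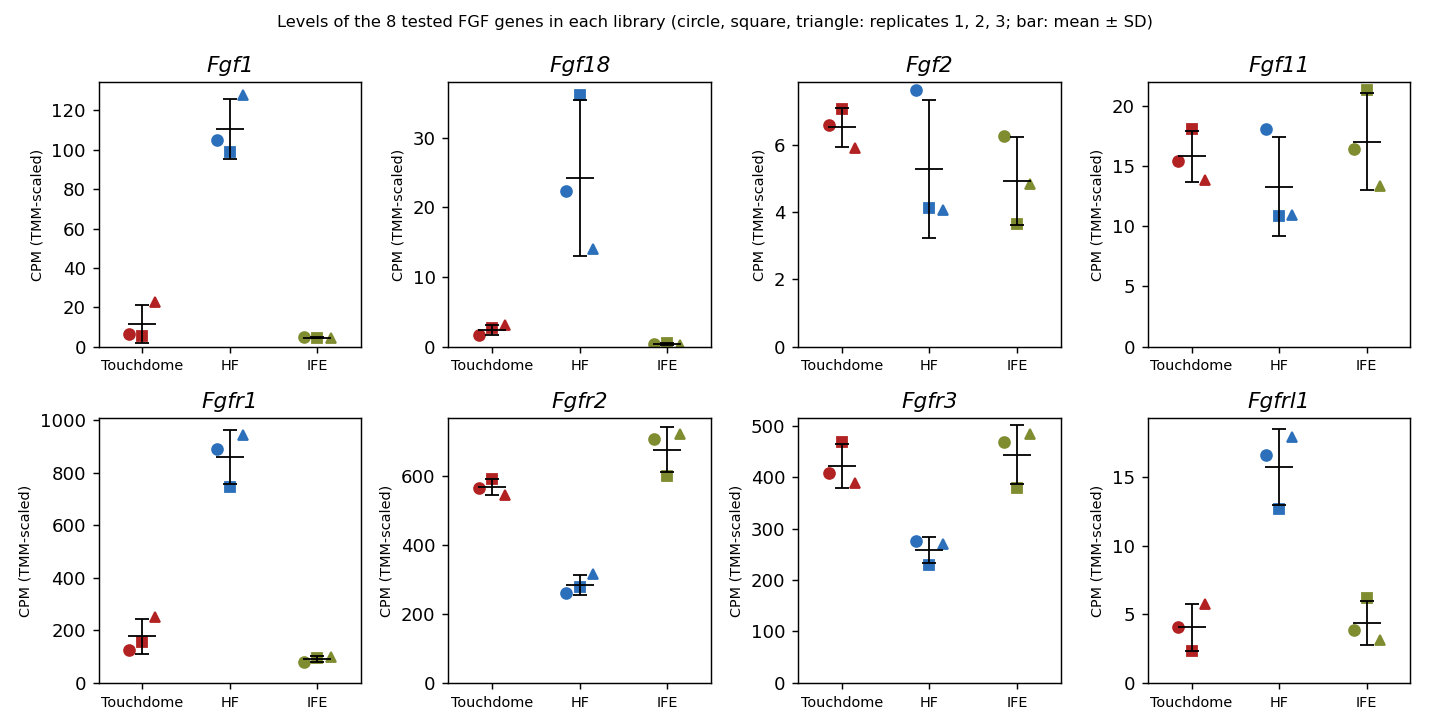
Levels in TMM-scaled CPM (vertical axes, linear from 0) of the 8 tested FGF genes in Touchdome, HF and IFE libraries. Points are libraries (circle, square and triangle for replicates 1, 2 and 3) and bars give the mean and SD of 3 libraries. Fgf1, Fgf18, Fgfr1 and Fgfrl1 are highest in HF and Fgfr2 and Fgfr3 lowest there.

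Fgf18 had 1.66, 2.68 and 3.07 CPM in Touchdome replicates 1, 2 and 3, against 22.4, 36.1 and 14.1 CPM in HF and 0.368, 0.563 and 0.265 CPM in IFE. No library of a group reached into the range of another, so the order was HF, Touchdome, IFE. These levels rest on 93 counts in all Touchdome libraries together, 1048 in HF and 22 in IFE. The log2 fold change of Touchdome over IFE was 2.67 with an SE of 0.47 (adjusted p = 0.0134, edgeR), and Touchdome was lower than HF (log2 fold change -3.30 ± 0.38, adjusted p = 4.25e-05). HF was higher than IFE by 5.96 ± 0.46 (adjusted p = 9.55e-07, edgeR), which is a 62.4-fold difference. The call against IFE ended without IFE replicate 1 (adjusted p = 0.0717) and without IFE replicate 3 (adjusted p = 0.0714), with limma on log2(TPM + 1) (adjusted p = 0.0526) and with only these groups in the fit (adjusted p = 0.0936). The difference was 2.48 without Touchdome replicate 3 (adjusted p = 0.0397) and 2.94 without IFE replicate 2 (adjusted p = 0.0252).

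Fgf1 encodes a ligand that binds all FGF receptor types and lacks a classical secretion signal. It had 6.59, 5.45 and 22.7 CPM in Touchdome, against 105, 99.1 and 128 CPM in HF and 4.79, 4.29 and 4.69 CPM in IFE. All HF libraries were above all others, and Touchdome replicate 3 was the highest library outside HF. HF was 24.01-fold higher than IFE (log2 fold change 4.59 ± 0.53, adjusted p = 0.000299, edgeR), and Touchdome was lower than HF (-3.27 ± 0.49, adjusted p = 0.00189). Against IFE, Touchdome had a log2 fold change of 1.32 ± 0.51 that did not pass (adjusted p = 0.396, 95% interval 0.15 to 2.50), although the libraries did not overlap. Without Touchdome replicate 3 it was 0.39 (adjusted p = 0.684), and the difference from HF was then -4.19 (adjusted p = 2.54e-08). Beside the bulge markers, the fibroblast list of 7 genes summed to 22.1, 24.3 and 77.1 CPM in Touchdome replicates 1, 2 and 3, against 62.2 to 87.2 CPM in HF and 0.579 to 2.95 CPM in IFE, with the fibroblast gene Lum at 0 in all Touchdome and HF libraries and Dpt at 0 in all HF and IFE libraries. Most of the HF sum was Col1a2, with a mean of 18.5 CPM in Touchdome, 65.2 CPM in HF and 0.297 CPM in IFE, whereas Col3a1 averaged 7.87 CPM in Touchdome, 0.262 CPM in HF and 0.251 CPM in IFE. The part of these markers in the Fgf1 and Fgfr1 levels was not tested.

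Fgf2, a ligand that like Fgf1 lacks a secretion signal, had 5.89 to 7.06 CPM in Touchdome, 4.06 to 7.63 CPM in HF and 3.66 to 6.26 CPM in IFE. The ranges overlapped in every pair of groups. Its log2 fold changes were 0.40 for Touchdome against IFE (95% interval -0.31 to 1.11), 0.29 for Touchdome against HF (-0.42 to 1.00) and 0.11 for HF against IFE (-0.60 to 0.81), with adjusted p = 0.777, 0.584 and 0.830 (edgeR). Fgf2 exons overlap those of Nudt6 on the opposite strand. The strand setting of the counting is not given in the sources used here, so reads in the shared stretch cannot be told apart. Fgf2 exons also overlap Gm43439 on the same strand. Fgf22, a ligand of the Fgf7 subfamily, had 12, 1 and 5 counts in Touchdome replicates 1, 2 and 3, against 0, 11 and 1 in HF and 2, 2 and 8 in IFE. The groups overlapped, and it was not tested; its exons also overlap Rnf126 on the opposite strand.

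Fgf11 belongs to the FGF homologous factors, which stay inside the cell and bind sodium channels rather than FGF receptors. It had 13.9 to 18.1 CPM in Touchdome, 10.9 to 18.1 CPM in HF and 13.3 to 21.3 CPM in IFE. All groups overlapped. Its log2 fold changes were -0.10 for Touchdome against IFE (95% interval -0.62 to 0.41), 0.24 for Touchdome against HF (-0.29 to 0.76) and -0.34 for HF against IFE (-0.85 to 0.18), with adjusted p = 0.951, 0.542 and 0.305 (edgeR). Its relative Fgf13, the only one of 17 other FGF genes that was tested, did differ: it had 8.76, 11.4 and 8.39 CPM in Touchdome, against 2.74, 1.58 and 2.95 CPM in HF and 13.0, 15.3 and 13.6 CPM in IFE. Fgf13 was higher in Touchdome than in HF by 1.94 ± 0.27 (adjusted p = 0.000184) and lower in HF than in IFE by a log2 fold change of -2.49 ± 0.27 (adjusted p = 1.53e-05, edgeR). Touchdome against IFE it was at -0.55 ± 0.25 (adjusted p = 0.443), though these libraries did not overlap.

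Fgfr1 encodes a receptor that is abundant in mesenchymal cells. It had 124, 156 and 251 CPM in Touchdome, against 890.1, 747 and 944 CPM in HF and 77.8, 95.7 and 97.6 CPM in IFE. Fgfr1 exons overlap those of the antisense gene Gm16159, and reads in the shared stretch cannot be told apart without strand. The groups did not overlap, and Touchdome replicate 3 was again the Touchdome library nearest to HF. HF was 9.52-fold higher than IFE (log2 fold change 3.25 ± 0.24, adjusted p = 2.44e-06, edgeR). Touchdome was lower than HF by a log2 fold change of -2.28 ± 0.23 (adjusted p = 3.63e-05). Touchdome against IFE was 0.97 ± 0.22 (95% interval 0.47 to 1.46), with adjusted p = 0.0738. It passed with the replicate block (0.93, adjusted p = 0.0182), with DESeq2 (0.97, adjusted p = 0.000666) and without Touchdome replicate 1 (1.17, adjusted p = 0.0136), and was 0.63 without Touchdome replicate 3 (adjusted p = 0.132).

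Fgfr2 and Fgfr3 moved the other way. Fgfr2, whose epithelial splice form receives Fgf7 and Fgf10 from the dermis, had 565, 592 and 547 CPM in Touchdome, against 261, 278 and 317 CPM in HF and 707, 601 and 723 CPM in IFE. Every HF library was below every other library, and Touchdome lay just under IFE with no overlap. Touchdome was 1.99-fold higher than HF (log2 fold change 0.99 ± 0.12, adjusted p = 7.73e-05, edgeR), and HF was lower than IFE (-1.25 ± 0.12, adjusted p = 8.15e-06). Against IFE, Touchdome was at -0.25 ± 0.12 (95% interval -0.52 to 0.01, adjusted p = 0.492). The table gives gene totals, so the splice forms cannot be told apart, and some exons overlap Ctbp2 on the same strand.

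Fgfr3, a receptor expressed in skin keratinocytes, had 407, 469 and 389 CPM in Touchdome, against 276, 229.5 and 269.9 CPM in HF and 469, 379 and 484 CPM in IFE. Touchdome and IFE overlapped, and HF lay below both. Touchdome was higher than HF by a log2 fold change of 0.71 ± 0.13 (adjusted p = 0.00176, edgeR) and HF was lower than IFE (-0.78 ± 0.13, adjusted p = 0.000591). Touchdome against IFE was -0.07 ± 0.13 (95% interval -0.36 to 0.21, adjusted p = 0.930). Its exons overlap G630022F23Rik on the opposite strand. Fgfr4, the remaining receptor, had 1, 0 and 2 counts in Touchdome and 0 in all HF and IFE libraries. A count of 0 allows up to 0.137 to 0.316 CPM in HF and 0.114 to 0.211 CPM in IFE libraries, at 3 counts per library and covering counting error only, so no difference was detectable at this depth.

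Fgfrl1 encodes a receptor-like protein that binds FGFs but lacks the tyrosine kinase domain. It had 4.09, 2.32 and 5.73 CPM in Touchdome, against 16.6, 12.6 and 17.9 CPM in HF and 3.84, 6.19 and 3.14 CPM in IFE. HF was above all others, and Touchdome and IFE overlapped. HF was 3.62-fold higher than IFE (log2 fold change 1.86 ± 0.34, adjusted p = 0.000984, edgeR) and Touchdome was lower than HF (-1.96 ± 0.35, adjusted p = 0.00112). Touchdome against IFE was -0.10 (95% interval -0.85 to 0.66, adjusted p = 0.970).

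**Figure D2:**
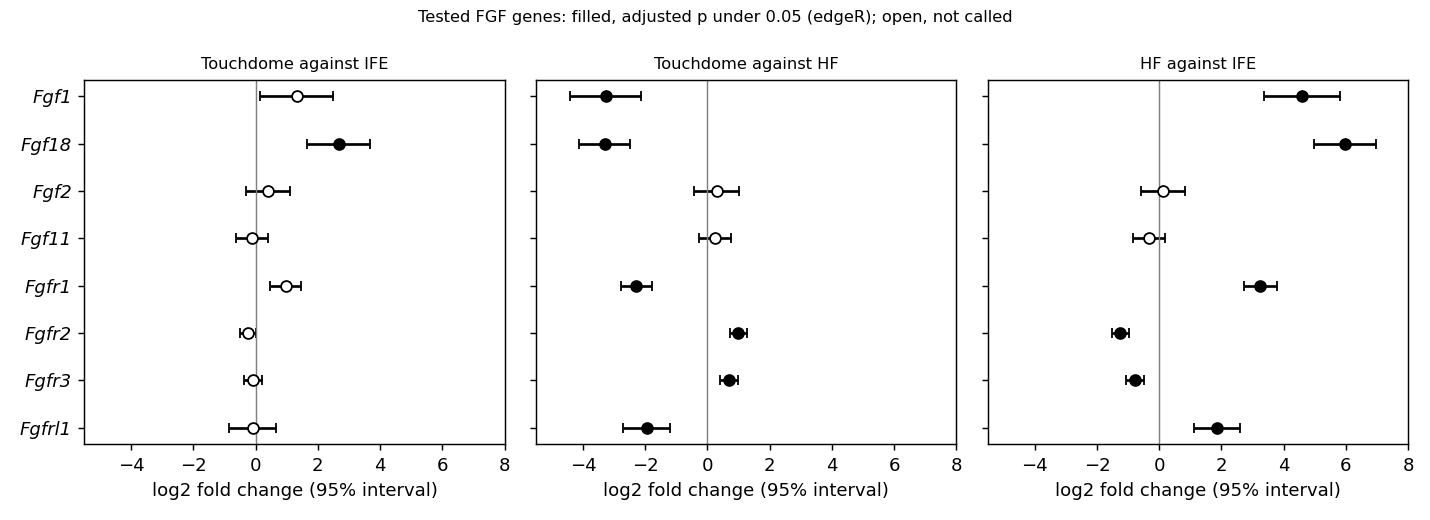
Log2 fold changes (horizontal axes) with 95% intervals of the 8 tested FGF genes in each comparison, filled where the adjusted p was under 0.05 (edgeR) and open otherwise. Fgf18 is the 1 filled gene in Touchdome against IFE, and 6 genes are filled in each of the comparisons with HF.

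By comparison, Touchdome exceeded IFE for 1 of the 8 tested members and fell below it for 0, where 1.22% of all genes tested were called higher and 0.0798% lower (edgeR, adjusted p under 0.05). At an unadjusted p under 0.05, 3 members were higher (Fgf1, Fgf18 and Fgfr1) and 0 lower, beside 6.96% and 3.71% of all genes. With DESeq2 or limma, 0 members were lower at an adjusted p under 0.05. The libraries of Touchdome and IFE did not overlap for 4 of the 8, against 14.6% of all genes. Touchdome exceeded HF for 2 of the 8 and fell below it for 4, where 11.8% of all genes were called higher and 12.8% lower, and 6 did not overlap, against 43.4% of all genes. In HF against IFE, 4 of the 8 were higher and 2 lower, with 17.1% of all genes called higher and 16.0% lower, and 6 did not overlap, against 47.7%. The same 6 genes, Fgf1, Fgf18, Fgfr1, Fgfr2, Fgfr3 and Fgfrl1, were called in both comparisons with HF, which share the HF libraries. The median log2 fold change of the 8 was 0.16 for Touchdome against IFE, -0.86 for Touchdome against HF and 0.98 for HF against IFE, beside medians over all genes of 0.00477, -0.00377 and 0.00424.

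Because TPM values are scaled by transcript length, they allow the receptors to be set beside each other within a library. Summed TPM of the 4 receptor genes was 683 to 802 in Touchdome, 781 to 996 in HF and 596 to 816 in IFE, ranges that overlapped between groups. Their makeup differed. Fgfr1 took 10.5%, 13.2% and 19.8% of the receptor TPM in Touchdome replicates 1, 2 and 3, against 60.7%, 59.9% and 57.6% in HF and 6.03%, 8.04% and 6.88% in IFE. Fgfr2 took 48.9% ± 2.46 in Touchdome, 21.3% ± 2.69 in HF and 58.3% ± 2.64 in IFE (SD, n = 3 each). Fgfr3 took 36.6% ± 2.99 in Touchdome, 19.3% ± 2.19 in HF and 34.7% ± 3.61 in IFE. Fgfr1 was thus the leading receptor transcript in all 3 HF libraries and Fgfr2 in all 6 others. Since shares add up to a whole, a higher share of 1 gene lowers the others. The total depth behind a TPM value is not carried by TPM itself.

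**Figure D3:**
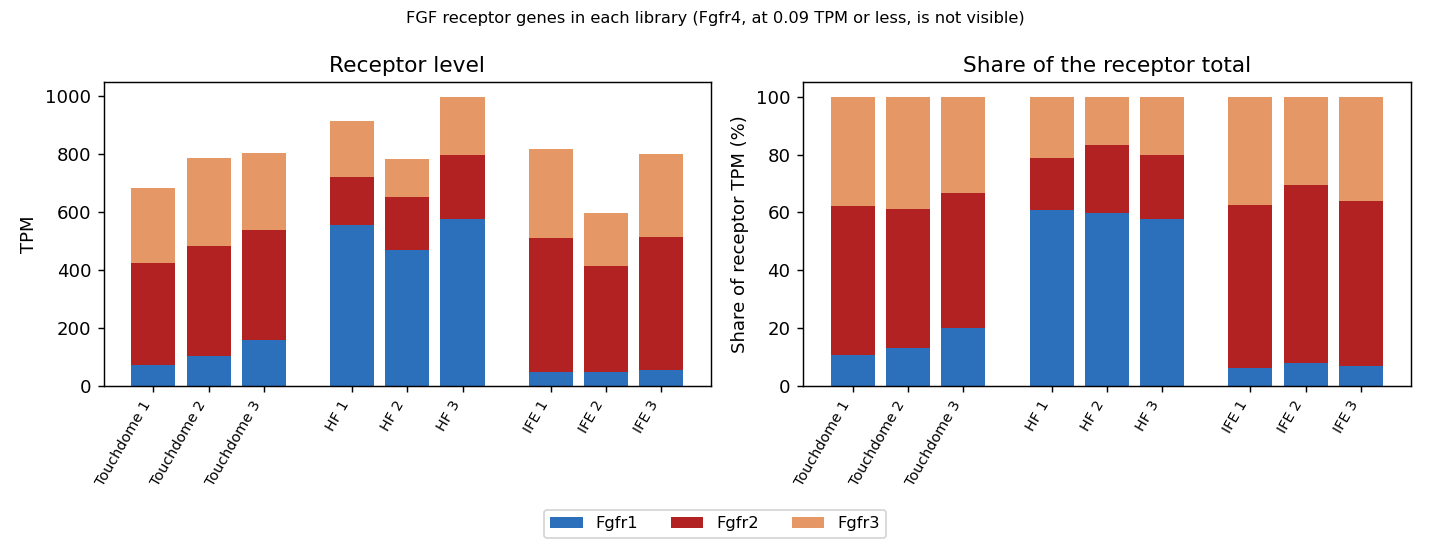
Receptor genes in each library as TPM (left, stacked bars from 0) and as a percentage of the summed Fgfr1 to Fgfr4 TPM (right). Fgfr1 makes up 10.5% to 19.8% of the receptor TPM in Touchdome, 57.6% to 60.7% in HF and 6.03% to 8.04% in IFE libraries.

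The ligands were set beside each other on the same TPM scale. In Touchdome, Fgf18 had 3.06 to 6.05 TPM, Fgf1 2.37 to 10.01 TPM, Fgf2 1.67 to 2.02 TPM and Fgf22 0.08 to 1.98 TPM. Of these neighbours in level, Fgf1 and Fgf18 overlapped, and so did Fgf2 and Fgf22. In HF, Fgf1 (47.2 to 64.8 TPM) and Fgf18 (28.4 to 74.1 TPM) overlapped and took 52.8% and 45.0% of the ligand TPM, with Fgf2 at 1.19 to 2.27 TPM and Fgf22 at 0 to 2.14 TPM. In IFE, Fgf1 led with 1.56 to 4.25 TPM, followed by Fgf2 (0.87 to 1.70 TPM), Fgf18 (0.50 to 1.01 TPM) and Fgf22 (0.22 to 0.51 TPM), and each neighbour in this order overlapped with the next. Summed TPM of these 4 ligand genes was 9.64 to 18.5 in Touchdome, 94.5 to 125 in HF and 3.66 to 6.49 in IFE, with no overlap between groups. Fgf11 had 8.29 to 10.5 TPM in Touchdome, 6.56 to 11.2 TPM in HF and 6.95 to 10.4 TPM in IFE.

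For the 6 genes called between HF and IFE, the place of each Touchdome library on the log2 CPM scale was expressed as a percentage of the distance from the IFE mean to the HF mean. Fgf18 lay furthest toward HF by its mean of 43.2%, at 34.0%, 46.2% and 49.4% in Touchdome replicates 1, 2 and 3. Fgfr1 lay at 14.4%, 24.4% and 45.6%, and Fgf1 at 11.3%, 5.77% and 50.1%. Fgfr2 lay at 20.0% ± 4.66, Fgfr3 at 9.07% ± 18.2 and Fgfrl1 at -6.60% ± 33.4 (SD, n = 3 each). Over all 4972 genes called between HF and IFE the median was 22.4%, with quartiles at 6.75% and 39.6%. Touchdome replicate 3 was the library nearest to HF for each of the 6 genes. These values share the HF and IFE libraries and are given as a description.

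**Figure D4:**
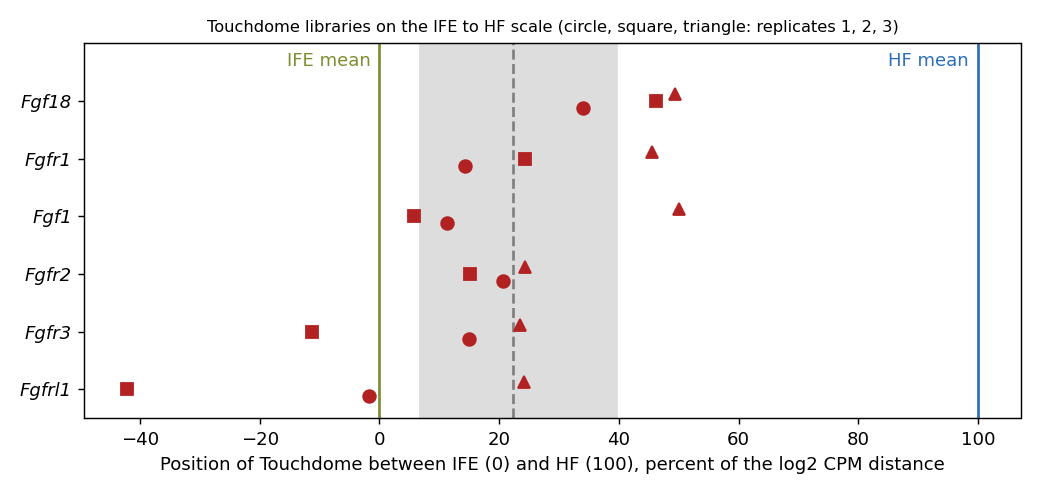
Place of the 3 Touchdome libraries (circle, square and triangle for replicates 1, 2 and 3) between the IFE mean (0) and the HF mean (100), in percent of the log2 CPM distance, for the 6 FGF genes called between HF and IFE. The dashed line and grey band give the median (22.4%) and quartiles (6.75% and 39.6%) of all 4972 called genes; replicate 3 lies furthest toward HF for every gene.

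Promoter sequences are shown for members on both sides of the HF difference, Fgf18 and Fgfrl1, which were high in HF, and Fgfr2 and Fgfr3, which were low there. Each runs from 250 bases before to 50 bases after a RefSeq transcription start (build GRCm38.p6; the authors' build was mm39), 5′ to 3′ in the direction of the gene, with CpG dinucleotides in capitals. Entries were matched by symbol with a chromosome left out by choice, which left 8 of the 10 members. Fgf1 and Fgfr1 were not among these, so for Fgf1 and Fgfr1 no promoter is described. The windows lie at chr11:33147351-33147650, minus strand; chr5:108693979-108694278, plus strand; chr7:130266759-130267058, minus strand; and chr5:33721474-33721773, plus strand (the first of 2 listed starts).
Fgf18: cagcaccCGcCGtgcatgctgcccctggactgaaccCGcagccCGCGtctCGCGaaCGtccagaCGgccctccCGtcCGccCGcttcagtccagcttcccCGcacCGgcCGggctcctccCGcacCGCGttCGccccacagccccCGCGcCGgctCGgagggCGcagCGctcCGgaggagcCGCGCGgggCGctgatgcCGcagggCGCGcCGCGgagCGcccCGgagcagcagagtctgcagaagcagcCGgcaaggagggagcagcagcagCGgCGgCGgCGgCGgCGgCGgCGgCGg
Fgfrl1: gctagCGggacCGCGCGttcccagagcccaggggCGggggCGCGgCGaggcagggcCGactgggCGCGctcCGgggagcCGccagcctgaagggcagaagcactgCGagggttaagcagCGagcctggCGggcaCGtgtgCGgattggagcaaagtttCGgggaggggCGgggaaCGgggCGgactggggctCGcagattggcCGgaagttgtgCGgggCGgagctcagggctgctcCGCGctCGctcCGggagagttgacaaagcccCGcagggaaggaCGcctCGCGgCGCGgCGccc
Fgfr2: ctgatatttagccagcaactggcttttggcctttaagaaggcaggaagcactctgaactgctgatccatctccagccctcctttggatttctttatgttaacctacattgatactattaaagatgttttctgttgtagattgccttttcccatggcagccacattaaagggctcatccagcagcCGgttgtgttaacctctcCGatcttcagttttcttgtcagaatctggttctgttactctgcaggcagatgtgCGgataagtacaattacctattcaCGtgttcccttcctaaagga
Fgfr3: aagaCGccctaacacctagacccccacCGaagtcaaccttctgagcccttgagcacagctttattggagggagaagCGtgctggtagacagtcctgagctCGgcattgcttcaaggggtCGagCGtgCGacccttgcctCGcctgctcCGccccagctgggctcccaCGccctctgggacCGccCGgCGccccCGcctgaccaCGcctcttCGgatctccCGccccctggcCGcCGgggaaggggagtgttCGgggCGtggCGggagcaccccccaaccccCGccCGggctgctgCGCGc
The Fgf18 window held 47 CpG and was 78.7% GC, and the Fgfrl1 window held 37 CpG at 73.7% GC. The Fgfr2 window held 4 CpG at 43.7% GC, and that of Fgfr3 26 CpG at 69.7% GC. The median over 32841 mouse promoter windows of that length was 7 CpG and 52.7% GC. Fgfr2 lay below the median and the other 3 above it. The TATA box letters TATAAA, found on either strand in 13.6% of all windows, and the GLI motif TGGGTGGTC, found in 0.253%, had no match in these 4. The TCF/LEF letters CTTTGNT, found in 18.6% of all windows, matched once in Fgfrl1 and in none of the other 3. These are letter matches, not sites.

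The genes whose pattern over the 9 libraries lay nearest to each called member were ranked by the root mean square (RMS) difference of centred log2 CPM. For Fgf18, whose range was 6.74 log2 units, they were Fam171b (RMS 0.42), Peg3 (0.45) and Tmem47 (0.53). Fam171b had 7.24 ± 3.30 CPM in Touchdome, 68.2 ± 6.42 CPM in HF and 1.66 ± 0.27 CPM in IFE (SD, n = 3 each). For Fgf1 they were Timp2 (0.17), Ptpru (0.25) and Krt75 (0.26), and for Fgfr1 Pik3cg (0.15), Gabre (0.17) and Slc4a3 (0.17). Timp2, a metalloproteinase inhibitor gene, had 44.9 ± 36.5 CPM in Touchdome, 435 ± 35.1 CPM in HF and 18.4 ± 3.39 CPM in IFE. For Fgfr2 they included Bcl11b (0.10) and Selenoh (0.11), and for Fgfr3 they were Sugp2 (0.06), Gfod1 (0.08) and Ranbp10 (0.08). Bcl11b, a transcription factor gene of the epidermis, had 338 ± 18.9 CPM in Touchdome, 176 ± 8.25 CPM in HF and 392 ± 21.2 CPM in IFE. For Fgfrl1 they were Armcx6 (0.20), Id4 (0.23) and Traf1 (0.23).

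The lists of other pathway genes were counted in the same fit. Of 11 feedback inhibitor genes of FGF and ERK signalling, all tested, HF exceeded IFE for 6 and fell below it for 1 (edgeR, adjusted p under 0.05), and their median log2 fold change was 0.71. Over all genes tested, 17.1% were higher and 16.0% lower in HF than in IFE and Touchdome exceeded HF for 11.8% and fell below it for 12.8%, with medians of 0.00424 and -0.00377. In Touchdome against HF, 0 of the 11 were higher and 5 lower (edgeR, median -0.82). At an unadjusted p under 0.05, 1 was higher and 8 lower, beside 17.1% and 18.1% of all genes. At the adjusted threshold these numbered 1 and 7 with DESeq2, 0 and 6 with limma and 1 and 8 with the replicate block. Spry4, a Sprouty inhibitor, had 0.901 ± 0.926 CPM in Touchdome, 10.6 ± 0.516 CPM in HF and 0.293 ± 0.194 CPM in IFE, and was higher in HF than in IFE by 5.08 ± 0.73 (adjusted p = 0.000199). With only Touchdome and IFE in the fit, 10 of the 11 genes were tested and Spry4 was not. It thus passed the filter through its HF counts. The ERK phosphatase gene Dusp4 (3.66 ± 0.49), Il17rd, which encodes the inhibitor Sef (1.39 ± 0.18), and Spred3 (3.15 ± 0.47) were higher in HF too, with adjusted p of at most 0.000220. Touchdome levels did not pass against IFE, with Dusp4 at 1.39 ± 1.01 CPM in Touchdome, against 0.947 ± 0.329 CPM in IFE and Il17rd at 9.12 ± 1.17 CPM in Touchdome, against 10.2 ± 1.47 CPM in IFE. Touchdome was lower than HF for Il17rd (-1.55 ± 0.18), Dusp4 (-3.13 ± 0.49), Spry4 (-3.54 ± 0.67) and Spred1 (-0.82 ± 0.12), with adjusted p of at most 0.00200. Dusp6, an ERK phosphatase gene added here after its values were seen, had 106 ± 65.6 CPM in Touchdome, 320.2 ± 66.0 CPM in HF and 98.0 ± 41.2 CPM in IFE, and its call in HF against IFE (adjusted p = 0.0498) was lost in 8 of 15 alternatives, which include the fits without Touchdome replicate 1, without any 1 HF library and without any 1 IFE library.

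Of the 3 ETS factor genes that FGF signalling is known to switch on, Etv4 and Etv5 were tested. Etv4 had 10.3 ± 1.24 CPM in Touchdome, 28.9 ± 1.18 CPM in HF and 9.72 ± 2.85 CPM in IFE. It was higher in HF than in IFE by 1.58 ± 0.21 (adjusted p = 0.000101), and Touchdome was below HF (-1.49 ± 0.22, adjusted p = 0.000275, edgeR). Etv5 had 24.6 ± 6.23 CPM in Touchdome, 25.2 ± 1.97 CPM in HF and 33.3 ± 8.90 CPM in IFE and did not pass in any comparison.

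Of 14 tested co-receptor and binding protein genes, 9 were higher and 3 lower in HF than in IFE (median log2 fold change 0.77), beside 17.1% and 16.0% of all genes, while Touchdome exceeded HF for 2 and fell below it for 7 (median -0.42), beside 11.8% and 12.8% of all genes. The 2 higher ones numbered 1 without HF replicate 1. Gpc6, a cell surface heparan sulfate proteoglycan gene, had 2.36 ± 1.74 CPM in Touchdome, 28.2 ± 3.33 CPM in HF and 0.747 ± 0.671 CPM in IFE (HF against IFE 5.32 ± 0.64, adjusted p = 0.000147, edgeR). Its relative Gpc1 went the other way, with 227 ± 12.1 CPM in Touchdome, 107 ± 13.7 CPM in HF and 251 ± 25.3 CPM in IFE, so that Touchdome was higher than HF by 1.08 ± 0.13 (adjusted p = 4.74e-05) and HF lower than IFE (-1.22 ± 0.13, adjusted p = 1.11e-05). The syndecan gene Sdc2 (1.15 ± 0.14) and Flrt2, of a family of membrane proteins that bind FGF receptors (1.17 ± 0.17), exceeded IFE in HF, and their Touchdome levels were below HF (-0.83 ± 0.14 and -1.12 ± 0.17), with adjusted p of at most 0.000993. Of 12 heparan sulfate synthesis and editing genes, 7 were higher and 2 lower in HF than in IFE, beside the same shares of all genes, while Touchdome exceeded HF for 2 and fell below it for 5. The 2 higher ones numbered 1 with limma and without Touchdome replicate 2, HF replicate 1 or HF replicate 2, and the lower ones numbered 2 without Touchdome replicate 1, 3 without Touchdome replicate 2 and 3 without HF replicate 3. The sulfatase gene Sulf1 had 0.984 ± 0.769 CPM in Touchdome, 5.09 ± 0.736 CPM in HF and 0.166 ± 0.171 CPM in IFE (HF against IFE 4.72 ± 0.82, adjusted p = 0.000600), and Sulf2 was higher in HF than in IFE by 1.58 ± 0.25. The chain-building genes Extl3 (0.82 ± 0.11) and Hs2st1 (0.80 ± 0.12) were higher as well. With only Touchdome and IFE in the fit, 10 of the 12 genes were tested and Sulf1 was not. Sulf1 thus passed the filter through its HF counts. Touchdome was lower than HF for Extl3 (-0.67 ± 0.11), Hs2st1 (-0.63 ± 0.12) and Ext2 (-0.40 ± 0.10) and higher for Hs3st1 (3.10 ± 0.64, adjusted p = 0.00315), a gene with 3.10 ± 1.22 CPM in Touchdome, against 0.320 ± 0.278 CPM in HF. Hs3st1 was also lower in HF than in IFE (-3.62, adjusted p = 0.000745, edgeR). Touchdome against IFE it was at -0.52 (adjusted p = 0.843, edgeR). The Ext2 call ended without Touchdome replicate 1 (adjusted p = 0.0526).

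Of the 20 signal transducer genes, 4 were higher and 5 lower in HF than in IFE (median -0.03), shares near the 17.1% and 16.0% of all genes. With limma on log2(TPM + 1) these counts were 5 and 0, and the lower ones numbered 3 without HF replicate 1 and 2 without HF replicate 3. In Touchdome against HF, 0 were higher and 3 lower (edgeR, median 0.01), beside 11.8% and 12.8% of all genes. At an unadjusted p under 0.05, 3 were higher and 6 lower, beside 17.1% and 18.1% of all genes. At an adjusted p under 0.05, the higher ones numbered at most 1 in any alternative (1 with DESeq2, 0 with limma). At that adjusted threshold the lower ones numbered 5 without IFE replicate 1, with DESeq2, with the replicate block, without the filter and with only these groups in the fit. They numbered 2 with limma, without Touchdome replicate 1 and without HF replicate 2. Pik3r1, a regulatory subunit of PI3 kinase, had 158 ± 14.9 CPM in Touchdome, 560 ± 37.5 CPM in HF and 143 ± 2.21 CPM in IFE (HF against IFE 1.97 ± 0.11, adjusted p = 1.18e-07; Touchdome against HF -1.83 ± 0.11, adjusted p = 3.50e-07, edgeR). Plcg1 and Mapk3, which encode phospholipase C gamma and the kinase ERK1, were also higher in HF than in IFE (0.59 ± 0.11 and 0.59 ± 0.14), and Touchdome was below HF (-0.51 ± 0.11 and -0.52 ± 0.14). The Touchdome call of Plcg1 ended with limma (adjusted p = 0.0952), and that of Mapk3 without Touchdome replicate 1 (adjusted p = 0.101) and without HF replicate 2 (adjusted p = 0.0672). Map2k2, which encodes an ERK-activating kinase, was lower in HF than in IFE (-0.44 ± 0.10, adjusted p = 0.00416), but not with limma (-0.18, adjusted p = 0.204).

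In Touchdome against IFE, 0 genes of these pathway lists were called in either direction (edgeR). At an unadjusted p under 0.05 this comparison gave 5 higher and 1 lower of the 14 co-receptor and binding protein genes, 3 and 1 of the 12 heparan sulfate genes, 1 and 1 of the 20 transducer genes, 0 and 1 of the 11 feedback inhibitors, 0 and 0 of the 2 ETS genes and 0 and 1 of the other FGF genes (Fgf13), beside 6.96% higher and 3.71% lower of all genes. DESeq2 called 2 co-receptor and binding protein genes and 1 heparan sulfate gene higher, and limma on log2(TPM + 1) called 1 co-receptor and binding protein gene higher. With the replicate block, 1 co-receptor and binding protein gene was higher and 1 feedback inhibitor lower. Differences of genes with the highest levels in their lists were small: Sdc1, a syndecan gene, had a mean of 853 CPM in Touchdome, against 844 CPM in IFE (log2 fold change 0.01, 95% interval -0.25 to 0.28), Sdc4 at -0.16 (-0.53 to 0.22), Pik3r1 at 0.14 (-0.10 to 0.38), Cbl at 0.04 (-0.60 to 0.67), Spred2 at -0.20 (-0.51 to 0.10), Ndst1 at 0.05 (-0.28 to 0.38) and Hs6st1 at 0.21 (-0.02 to 0.45). Over all genes tested the median was 0.00477.

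**Figure D5:**
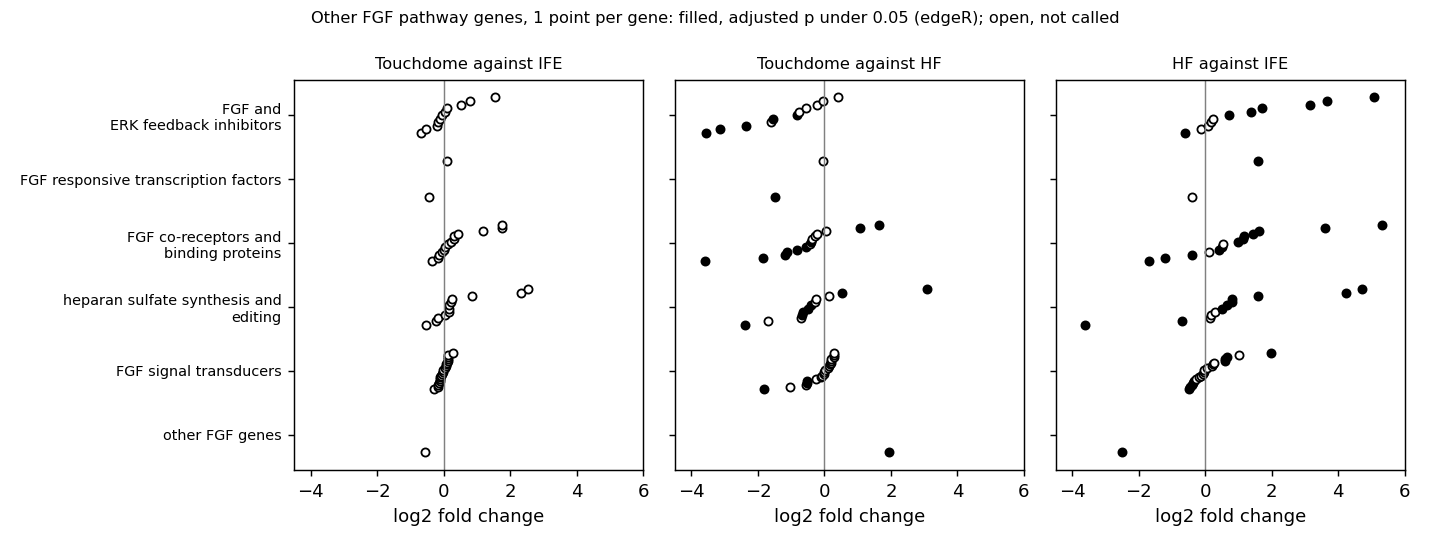
Log2 fold changes (horizontal axes) of the tested genes of the other FGF pathway lists, 1 point per gene, filled where the adjusted p was under 0.05 (edgeR). No point is filled in Touchdome against IFE, while 6 of 11 feedback inhibitors are higher in HF than in IFE.

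The HF contrast of these lists moved with markers of follicle cells and, in part, of other cell types. All 8 bulge and hair germ markers exceeded IFE in HF, and their Touchdome levels were below HF, and 3 of 8 were higher in Touchdome than in IFE. Of all genes tested, 17.1% were higher and 16.0% lower in HF than in IFE. Touchdome was lower than HF for 12.8% of all genes and higher than IFE for 1.22%. Of 7 melanocyte markers, 5 were tested and 4 were higher in HF than in IFE, with a summed level of 16.1 to 51.3 CPM in Touchdome, 99.0 to 129 CPM in HF and 9.92 to 14.3 CPM in IFE, and Tyr at 0 in all IFE libraries. Most of this sum was Mitf, with a mean of 15.3 CPM in Touchdome, 98.9 CPM in HF and 9.91 CPM in IFE. Mitf was the 1 melanocyte marker called between Touchdome and HF, and Dct averaged 6.03 CPM in Touchdome, 8.22 CPM in HF and 0.885 CPM in IFE. Of 7 fibroblast markers, 4 were tested and 3 were higher in HF than in IFE. Sebaceous gland markers summed to 213 to 295 CPM in Touchdome, 607 to 1403 CPM in HF and 220 to 285 CPM in IFE. Some other marker lists summed lower in HF. Suprabasal epidermis markers were at 5623 to 7608 CPM in Touchdome, 1019 to 1286 CPM in HF and 3785 to 5329 CPM in IFE. Of these 5 genes, 2 were lower and 1 higher in HF than in IFE. Schwann cell markers were at 25.5 to 33.3 CPM in HF and 60.6 to 72.3 CPM in IFE. Dermal papilla markers were at 2.88 to 4.22 CPM in HF and 14.3 to 20.0 CPM in IFE. Merkel cell markers (7 genes) summed to 10.6, 1.52 and 1.58 CPM in Touchdome replicates 1, 2 and 3, against 3.37 to 3.997 CPM in HF and 0.114 to 0.316 CPM in IFE. Of these, Atoh1 and Sox2 were at 0 in all 9 libraries, while Krt8 was higher in Touchdome than in IFE (2.99 against 0.0603 CPM, adjusted p = 0.0225) and in HF than in IFE (adjusted p = 0.00300, edgeR), and Piezo2 was higher in HF than in IFE. The part of these cells in the FGF results was not tested.

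Apart from Fgf13, the other FGF genes were at or near 0. Of the 17, Fgf3, Fgf4, Fgf6, Fgf8, Fgf12, Fgf14 and Fgf23 had 0 counts in all 9 libraries. Fgf7 and Fgf10, the dermal ligands of the epithelial Fgfr2 form, had 8 and 3 counts in all libraries together, and Fgf5, a follicle ligand that ends the hair growth phase, had 1. Fgf21, a hormone-like FGF, had 0, 0 and 2 counts in Touchdome, against 1, 10 and 5 in HF and 0, 0 and 3 in IFE.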

How the data were processed

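RNA was measured in 9 libraries, 3 each of Touchdome, HF and IFE keratinocytes. The submitters' processing notes name the tools STAR 2.7.9a, RSEM 1.3.3 and DESeq2 1.38.2 and the build mm39, with no role for each. No annotation release or strand setting is given in the sources used here. The exon overlaps come from a separate reference annotation, which may differ from that of the authors. The authors deposited RSEM expected counts per gene without scaling, which were whole in 92.5% to 94.5% of rows. The TPM values deposited by the authors are scaled by transcript length and carry no depth. A reference table gave symbols for 52081 of 55357 identifiers.

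Expected counts were rounded, filtered with filterByExpr (minimum count 10, minimum total count 15) and scaled by TMM. The robust quasi-likelihood test of edgeR 4.0.16 (R 4.3.3) used 1 fit of all 9 libraries, with Benjamini-Hochberg adjustment over 15046 genes at 0.05. The SE is the log2 fold change before edgeR's shrinkage, divided by the root of the F statistic. The 95% intervals use this SE around the reported log2 fold change, which is after shrinkage. Log2 CPM used a prior count of 2. Alternatives were limma 3.58.1 on log2(TPM + 1), DESeq2 1.42.0, other scaling, filtering and samples, the replicate block, and each library left out. The test was checked on simulated counts. Libraries of a group differed by more than sampling noise (chi-square per degree of freedom 16.8 to 73.6). Same-numbered Touchdome and IFE libraries deviated together from their group means (r 0.151 to 0.173 across genes). The main fit did not pair them, and only the replicate block, run as an alternative, did.

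Named were the 10 members, up to 4 called genes with the smallest p of each pathway list and comparison (the 2 with the highest level where none was called), tested other FGF genes, and the 3 nearest genes of each called member. Members and lists were chosen with earlier results of these data known. Some genes that this rule names are not reported here.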

Additional observations from a re-analysis of the deposited data

How the results depend on the processing

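Of the 10 members, 1 was higher in Touchdome than in IFE, and this count was 2 with DESeq2 and with the replicate block (Fgf18 and Fgfr1), 0 with limma on log2(TPM + 1) and with only the 2 groups compared, and 0 to 2 with 1 library left out. It was 0 without IFE replicate 1 or IFE replicate 3 and 2 without Touchdome replicate 1. The count of members lower in HF than in IFE was 1 with limma, where Fgfr3 missed the threshold (adjusted p = 0.0698). The other counts of members were the same under all 15 alternatives, and the replicate block changed no other call of a member. For the HF comparisons, pairing by number was not settled. In Touchdome against HF, same-numbered libraries correlated at -0.03 to 0.06, beside -0.09 to 0.05 for the other pairs. There 3 of 6 libraries correlated best with their own number. In HF against IFE, same-numbered libraries correlated at -0.004 to 0.06, beside -0.06 to 0.02 for the other pairs, with 4 of 6 best with their own number. With limma on log2(TPM + 1) the median of all genes moved to 0.19 in HF against IFE and to 0.13 in Touchdome against IFE, and the calls in HF against IFE were 2989 higher and 1209 lower, against 2571 and 2401 with edgeR. In Touchdome against IFE, all genes gave 184 higher and 12 lower calls, but 446 and 84 with DESeq2, 282 and 67 with the replicate block, 261 and 49 without the filter, 100 and 0 with limma and 100 and 5 with only the 2 groups compared. With 1 library left out these counts were 105 to 216 and 4 to 29. The alternatives for the pathway lists and the receptor shares were chosen after seeing the data. Fgf18 in IFE rests on 22 counts, which limits its precision.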

Other observations

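Values of TPM and CPM did not keep the same ratio for every member. TPM divided by CPM was 0.422 to 0.442 in Touchdome and 0.477 to 0.506 in HF for Fgf1, and 0.364 to 0.905 in IFE, where 276 counts of Fgf1 lay in 3 libraries. Fgf1 thus had 3.50, 1.56 and 4.25 TPM in IFE replicates 1, 2 and 3 beside 4.79, 4.29 and 4.69 CPM. For Fgfrl1 the ratio was 0.753 to 0.779 in Touchdome, 0.816 to 0.991 in HF and 0.694 to 1.13 in IFE. For Fgfr2 it was 0.625 to 0.689 in Touchdome, 0.638 to 0.703 in HF and 0.608 to 0.651 in IFE. The range was wider for Fgfr3, at 0.634 to 0.6845 in Touchdome, 0.5735 to 0.738 in HF and 0.482 to 0.652 in IFE. For Fgfr1 it was 0.578 to 0.665 in Touchdome, 0.608 to 0.6265 in HF and 0.500 to 0.632 in IFE.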
